A study of Mus musculus with 8 samples.

Results

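The H19, Meg3, Rasgrf1 and Gnas imprinted loci were followed through methylation peak lists of the mouse small intestinal epithelium. Peaks were taken where they overlapped 4 mm9 intervals, H19 at chr7:149750000-149785000, Meg3 with its upstream intergenic stretch at chr12:110755000-110815000, the stretch upstream of Rasgrf1 at chr9:89755000-89810000 and the Gnas complex at chr2:174095000-174175000. Peaks of the 8 lists that shared at least 1 bp were merged into 1 region. The intervals held 57 of the 475861 regions so formed, 6 at H19, 22 at Meg3, 11 at Rasgrf1 and 18 at Gnas. Regions are numbered by position within their interval, and Meg3 region 5 is the fifth from the start of the Meg3 interval.

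The lists came from MBD sequencing, in which a methyl-CpG-binding protein pulls down methylated DNA fragments that are then sequenced and counted as tags. The groups were E12.5 and E14.5 epithelium, from embryos of those embryonic days and sorted for EpCAM without CD31 or CD45, and adult intestinal stem cells (ISC) and enterocytes. Both adult groups came from male Lgr5EGFP-Cre-ERT mice at P60, postnatal day 60. High EGFP from the Lgr5 gene, which stem cells of the crypt express, selected the ISC. The other adult group is labelled enterocytes, the absorptive cells of the epithelium. It was selected for EpCAM without CD31 or CD45, the same markers as for the embryonic epithelium. These markers as given do not set enterocytes apart from other epithelial cells. All groups were of a mixed C57BL/6 CD1 strain, with 2 biological replicates each, and no genotype or sex of the embryos was used here. The lists hold no transcript levels, so the sorted populations were not checked against marker genes.

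An imprinted gene is transcribed mainly from the copy of 1 parent, and the choice is carried by a control element whose CpGs are methylated on 1 parental copy from the germ cells onward. H19 is a maternally expressed noncoding RNA next to the growth factor gene Igf2, Meg3 is a maternally expressed noncoding RNA of the cluster that also holds Dlk1, and Rasgrf1 is a mostly paternally expressed guanine nucleotide exchange factor. The control elements of these 3 loci carry methylation on the paternal copy. Gnas encodes the stimulatory G protein alpha subunit from a complex of overlapping transcripts, with elements methylated on the maternal and on the paternal copy. Pull-down of bulk DNA does not separate the parental copies, and no annotation in mm9 was used, so the known elements were not placed on the regions described here.

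The promoter sequences of these genes are shown because MBD proteins bind methylated CG pairs, so a stretch with few of them can yield few fragments. They are the 250 bases before transcript starts in RefSeq on GRCm38.p6, 5′ to 3′ on the plus strand, with each CG in capitals. The table used held 2 such windows for Meg3, 4 for Gnas and 1 for Rasgrf1. H19 was not matched. The windows shown are the upstream of the 2 Meg3 windows, chr12:109540746-109540995, the first and the last of the 4 Gnas windows, chr2:174284070-174284319 and chr2:174329756-174330005, and the Rasgrf1 window, chr9:89909525-89909774.
Meg3 window 1: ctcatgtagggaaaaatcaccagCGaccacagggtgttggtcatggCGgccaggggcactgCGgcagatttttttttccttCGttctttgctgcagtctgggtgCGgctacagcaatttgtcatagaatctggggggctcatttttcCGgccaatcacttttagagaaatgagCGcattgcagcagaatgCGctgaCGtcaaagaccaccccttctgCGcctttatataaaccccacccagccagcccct
Gnas window 1: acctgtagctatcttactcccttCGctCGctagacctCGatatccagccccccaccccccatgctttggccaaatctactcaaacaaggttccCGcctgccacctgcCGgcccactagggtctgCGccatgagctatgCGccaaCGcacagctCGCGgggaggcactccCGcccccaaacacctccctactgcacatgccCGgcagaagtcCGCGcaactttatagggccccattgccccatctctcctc
Gnas window 4: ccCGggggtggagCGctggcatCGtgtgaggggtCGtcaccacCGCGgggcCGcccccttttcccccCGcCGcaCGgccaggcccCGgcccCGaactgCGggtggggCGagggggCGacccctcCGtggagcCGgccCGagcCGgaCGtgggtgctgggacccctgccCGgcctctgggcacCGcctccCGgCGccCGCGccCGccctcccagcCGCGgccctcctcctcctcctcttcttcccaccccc
Rasgrf1 window 1: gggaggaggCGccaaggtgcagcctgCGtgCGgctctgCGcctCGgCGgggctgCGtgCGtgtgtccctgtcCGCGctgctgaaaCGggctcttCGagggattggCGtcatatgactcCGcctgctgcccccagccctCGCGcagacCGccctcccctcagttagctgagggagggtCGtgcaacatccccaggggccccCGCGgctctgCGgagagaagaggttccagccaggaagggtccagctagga
The motif CG reads the same on both strands and had a median count of 6 over the 32851 windows in the table. Meg3 window 1 held 10, a number reached by 37.8% of all windows, and the downstream Meg3 window held 0. Gnas window 1 held 14 (reached by 29.4%), the 2 overlapping middle windows of Gnas held 21 and 22, and Gnas window 4 held 29 (reached by 6.78%). Rasgrf1 window 1 held 21 (reached by 16.3%). These positions are on another build than the peaks, so whether a peak covers any of these windows was not tested.

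The 6 E14.5, ISC and enterocyte libraries had 31438314 to 43343543 tags and 164157 to 338262 peaks, against more tags, 55237390 and 55442400, but fewer peaks, 100314 and 84990, at E12.5. Peaks held 23.8% to 38.9% of the tags in the 6 later libraries, against 9.84% and 7.46% at E12.5. Over the regions with a peak in all 8 libraries, the median was 1.69 to 2.29 normalised tags in the 6 later libraries, against 1.1 and 0.956 at E12.5. Normalised tags are the tags in a region's peaks per 1000000 tags of the library. The lower share of tags in peaks at E12.5 is present in every comparison with E12.5 given here, whichever way the difference goes. Its part in these differences was not tested. A missing peak means only that a list did not reach the caller's p cutoff of 1e-05 there.

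A peak in all 8 libraries was found for 3 of the 57 regions, 5.26%, beside 5.16% of all regions. These were Meg3 region 5, Gnas region 16 and Gnas region 18. A peak in 1 library was found for 23 of the 57, 40.4%, beside 28.1% of all regions. Neither E12.5 library had a peak in 42 of the 57, 73.7%, beside 69.9% of all regions. The 57 regions had a median length of 503 bp and a median of 2 libraries, against 557 bp and 3 libraries over all regions. Each list called between 6 of the 57, in E12.5 replicate 1 (10.5%, beside 20.6% of all regions), and 34, in E14.5 replicate 2 (59.6%, beside 63.2%). E12.5 replicate 2 called 22.8% of the 57, beside 17.4% of all regions, and the other 7 lists called a lower share of the 57 than of all regions.

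By group, both E12.5 libraries had a peak in 4 of the 57, 7.02%, beside 7.93% of all regions. For E14.5 these were 22, 38.6%, beside 43.7%. For ISC they were 15, 26.3%, beside 31.4%, and for enterocytes 13, 22.8%, beside 27.7%. Regions with peaks in libraries of 1 group alone numbered 3 at E12.5 (5.26%, beside 2.91% of all), 17 at E14.5 (29.8%, beside 20.1%), 5 in ISC (8.77%, beside 6.83%) and 3 in enterocytes (5.26%, beside 2.96%). These shares were not tested against those of the genome.

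**Figure D1:**
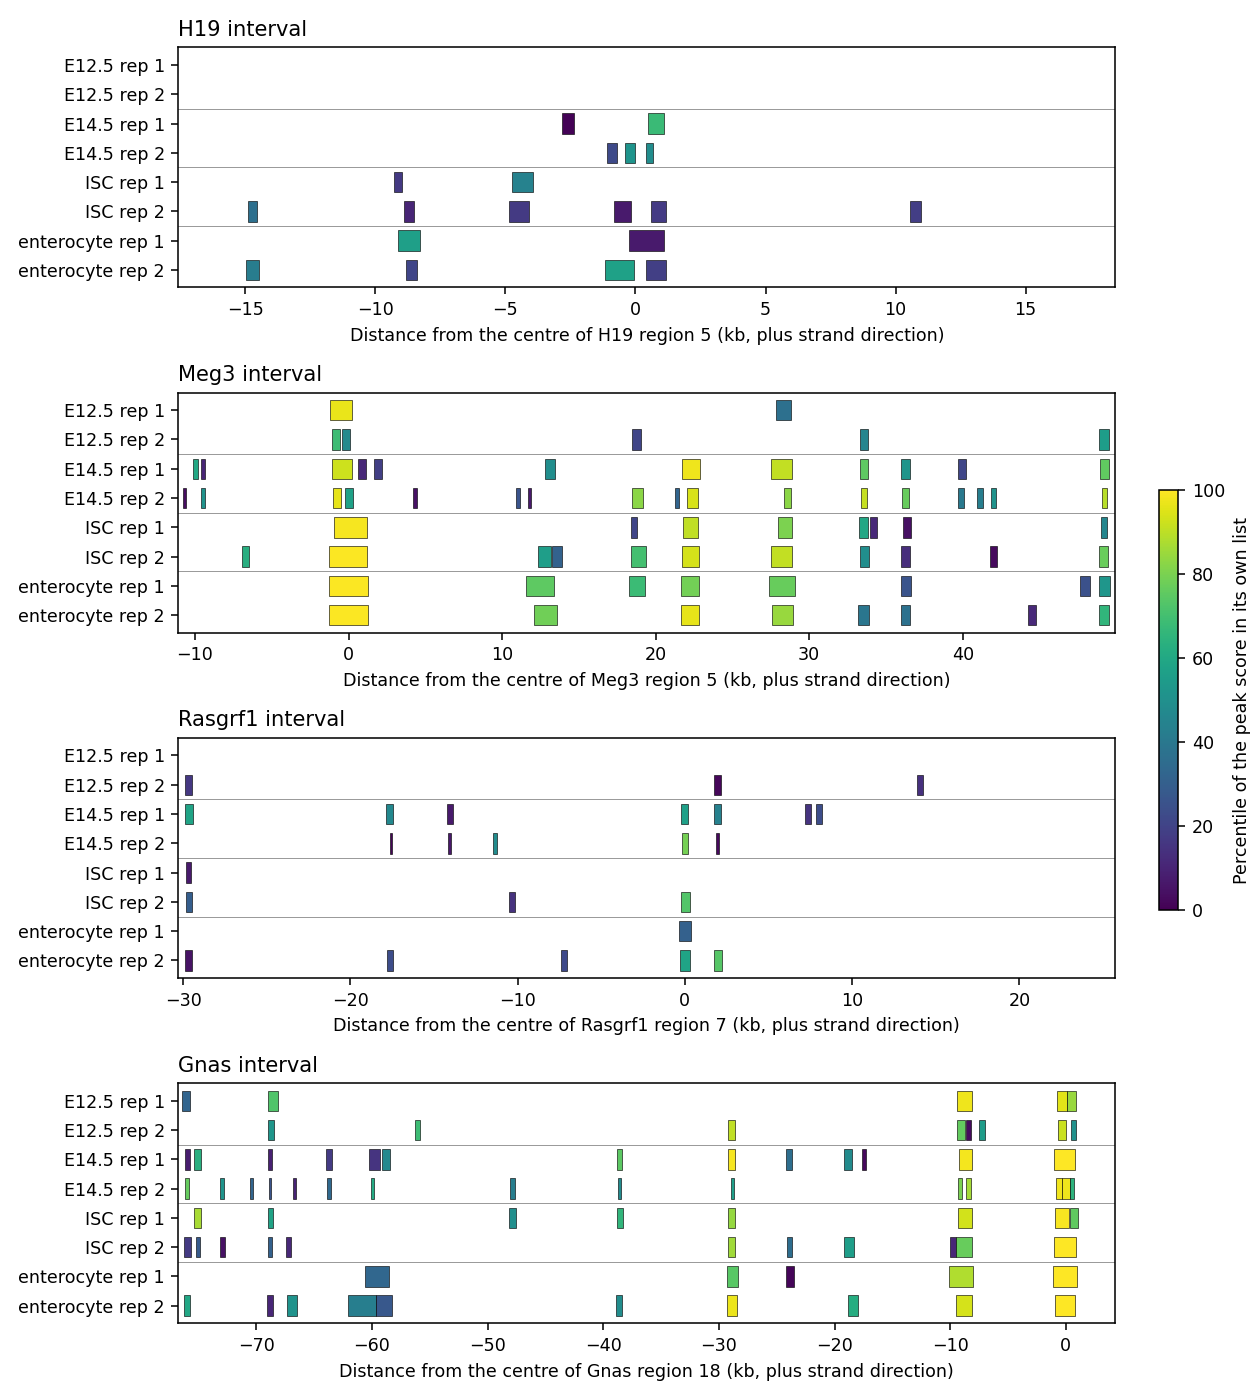
Peaks of the 8 libraries in the 4 intervals, with distance in kb from the centre of 1 region of each interval on the x axis and 1 row per library. Colour gives the percentile of the peak's score within its own list. The H19 rows of E12.5 are empty, while Meg3 region 5, Gnas region 16 and Gnas region 18 have a peak in every row.

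The share of each interval under peaks differed between the loci. Meg3 was covered at 3.95% and 4.6% at E12.5, 13.6% and 10.5% at E14.5, 10.6% and 16.6% in ISC, and 17% and 14.7% in enterocytes. Gnas was covered at 5.23% and 5.58% at E12.5, 11.4% and 6.47% at E14.5, 7.24% and 9.68% in ISC, and 9.93% and 14% in enterocytes. Each of these 16 values was above the share of the genome under peaks in the same library, which was 2.5%, 1.81%, 6.28%, 3.92%, 4.18%, 6.29%, 6.2% and 6.35% in the same order.

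H19 and Rasgrf1 were covered less. H19 had 0% in both E12.5 libraries, 3.13% and 2.86% at E14.5, 3.25% and 8.94% in ISC, and 6.19% and 8.02% in enterocytes. It passed the genome's share in ISC replicate 2 and enterocyte replicate 2 and in none of the other 6 libraries. Rasgrf1 had 0% and 1.93% at E12.5, 4.71% and 2.02% at E14.5, 0.4% and 2.23% in ISC, and 1.39% and 3.86% in enterocytes. It was below the genome's share in 7 libraries and above it in E12.5 replicate 2.

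**Figure D2:**
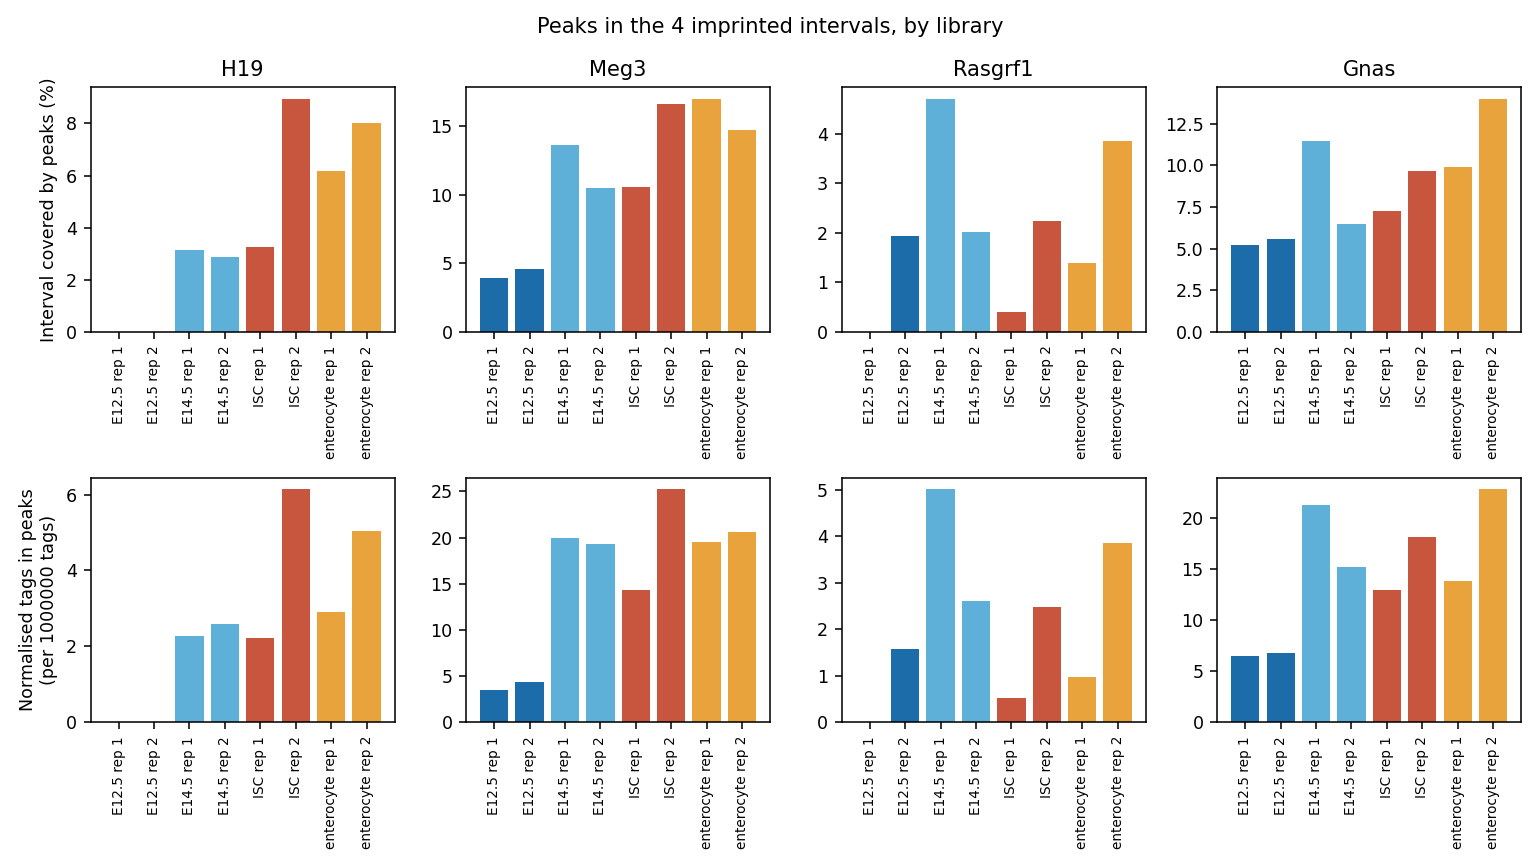
Share of each interval covered by peaks in percent (upper row) and normalised tags in its peaks (lower row), 1 bar per library, coloured by group. H19 has no bar at E12.5, and Meg3 and Gnas are lowest in the 2 E12.5 libraries on both scales.

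Within its interval, H19 had no peak at E12.5 and between 2 and 6 peaks in each later library. A region that began 407 bp past the interval, chr7:149785407-149786305, had a peak in all libraries but E12.5 replicate 1. The absence thus ended near this edge in E12.5 replicate 2 and not in E12.5 replicate 1. The nearest region before the interval, at a distance of 5387 bp, had a peak in E14.5 replicate 1 alone. H19 region 5, chr7:149765901-149768227, was the longest region of the interval. It held no peak in the E12.5 libraries, 47 and 90 tags at E14.5, no peak in ISC replicate 1 and 76 tags in ISC replicate 2, and 76 and 137 tags in enterocytes. That is 1.36 and 2.58 normalised tags at E14.5, 2.42 in the ISC library with a peak, and 1.75 and 3.5 in enterocytes. The ranges of E14.5 and enterocytes overlapped, and its best scores lay between the 6.74 and the 67.9 percentile of their lists. The peaks of the 2 E14.5 libraries shared 208 bases of it, chr7:149767529-149767736.

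H19 region 2, chr7:149757775-149758765, was called in each of the 4 adult lists and in no embryonic one, alone among the 57. Enterocytes had 50 and 28 tags there and ISC had 19 and 21. These were low values, 1.15 and 0.715 normalised tags in enterocytes and 0.586 and 0.668 in ISC. The smallest peaks of these 4 lists had 0.463 to 0.531 normalised tags. H19 region 3, chr7:149762218-149763115, had 53 and 50 ISC tags, 1.63 and 1.59 normalised tags, and no peak in any other library. The other 3 regions of the interval had peaks in 1 or 2 libraries, with 22 to 32 tags per library.

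Meg3 was the densest of the intervals, with 3.67 regions per 10 kb against 2.25 at Gnas, 2 at Rasgrf1 and 1.71 at H19. Its peaks together averaged 3.92 ± 0.654 normalised tags in the E12.5 lists, 19.7 ± 0.455 in the E14.5 lists, 19.8 ± 7.67 for ISC and 20.1 ± 0.744 for enterocytes (SD, n = 2 per group). The 2 E12.5 libraries lay below all later ones, and the 3 later groups overlapped.

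Meg3 region 5, chr12:110764286-110766872, was the strongest region of the interval. It held 123 and 95 tags at E12.5, 154 and 118 at E14.5, 171 and 225 in ISC, and 284 and 292 in enterocytes. As normalised tags, these were 2.23 and 1.71 at E12.5, 4.46 and 3.38 at E14.5, 5.27 and 7.16 in ISC, and 6.55 and 7.46 in enterocytes. The 4 adult libraries all lay above the 4 embryonic ones, and ISC and enterocytes overlapped. The best score reached the 98.8 to 99.4 percentile of its list in the adult libraries and the 68.4 to 96.6 percentile in the embryonic ones.

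The stretch of Meg3 region 5 under peaks was also wider in the adult. Peaks covered 2174 and 2427 bases in ISC and 2571 and 2552 in enterocytes, against 1436 and 1048 at E12.5 and 1894 and 1021 at E14.5. Of the region, 701 bases were covered in all 8 libraries and 2157 in all 4 adult ones. A run of 932 bases at its far end, chr12:110765830-110766761, was covered in all 4 adult libraries and in neither E12.5 library. Of these, 365 bases were covered in no embryonic library. The wider peaks moved with the higher tag totals, and the values per covered kb are given with the test below.

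Meg3 regions 12 and 16 had peaks in all 6 later libraries and in neither E12.5 library, 2 of the 57, 3.51%, beside 5.49% of all regions. Meg3 region 12, chr12:110787205-110788439, held 106 and 76 tags at E14.5, 69 and 99 in ISC, and 91 and 110 in enterocytes. These were 3.07 and 2.18, 2.13 and 3.15, and 2.1 and 2.81 normalised tags in the same order. The 3 groups overlapped, and the scores, from the 78.8 to the 97.4 percentile, were among the higher ones of the lists. Meg3 region 16, chr12:110801528-110802223, was weaker, with 1.45 and 1.46 normalised tags at E14.5, 1.02 and 1.3 in ISC, and 1.13 and 1.25 in enterocytes.

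Meg3 region 9, chr12:110777134-110779477, lay 10.3 kb beyond region 5. It held 1.36 and 0.545 normalised tags at E14.5, no peak in ISC replicate 1 and 3.24 in ISC replicate 2, and 2.86 and 2.89 in enterocytes. Its 3 adult peaks were all above the 2 embryonic ones. Meg3 region 3, chr12:110755956-110756241, with 18 and 21 tags, and Meg3 region 17, chr12:110805255-110805772, with 32 and 31 tags, had peaks in the E14.5 libraries and in no other. The other 16 Meg3 regions had peaks in 1 to 7 libraries, 11 of them in 1, with 15 to 120 tags per library. The strongest of these, Meg3 region 13, picked after its values were seen, had a peak in every library but E12.5 replicate 2, with 1.23 normalised tags in E12.5 replicate 1 and 1.4 to 3.27 in the later libraries.

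Rasgrf1 held few tags, as did H19. Its peaks together held 0 and 1.57 normalised tags at E12.5, 5 and 2.61 at E14.5, 0.524 and 2.48 in ISC, and 0.969 and 3.86 in enterocytes. E14.5 lay above E12.5 and above ISC, the other pairs of groups overlapped, and the replicates of the adult groups lay far apart. Rasgrf1 region 7, chr9:89784399-89785160, had the most tags. It held 28 and 32 tags at E14.5, no peak in ISC replicate 1 and 36 tags in ISC replicate 2, 42 and 39 in enterocytes, and no peak at E12.5. In normalised tags, its 5 peaks were alike, from 0.81 to 1.15.

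The other regions at Rasgrf1 held at most 37 tags in any library. Rasgrf1 region 8, chr9:89786539-89786990, held 31 tags in E12.5 replicate 2, 26 and 13 at E14.5 and 37 in enterocyte replicate 2, with no peak in the other 4 libraries. Rasgrf1 region 2, chr9:89766925-89767345, had 26 and 13 tags at E14.5 and 26 in enterocyte replicate 2. Rasgrf1 region 3, chr9:89770572-89770922, had 20 and 13 tags at E14.5 and no peak elsewhere. The values of 13 tags stood next to the 12 tags of the smallest peak in the list of E14.5 replicate 2. Of the other 7 regions, 6 were called in 1 library. A region called in all 8 libraries began 26 bp past the end of the Rasgrf1 interval, at chr9:89810026-89810635, and so was no member.

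Gnas held 2 of the 3 regions with a peak in every library. Summed over its peaks, Gnas averaged 6.69 ± 0.212 normalised tags in the E12.5 lists, 18.3 ± 4.33 in the E14.5 lists, 15.6 ± 3.71 for ISC and 18.3 ± 6.4 for enterocytes (SD, n = 2 per group). The 3 later groups overlapped. Gnas region 18, chr2:174170154-174172323, held 131 and 96 tags at E12.5, 175 and 159 at E14.5, 131 and 191 in ISC, and 194 and 188 in enterocytes. As normalised tags, these were 2.37 and 1.73 at E12.5, 5.06 and 4.56 at E14.5, 4.04 and 6.08 in ISC, and 4.48 and 4.8 in enterocytes. E12.5 lay lowest and the other groups overlapped. Its best peak stood between the 91.9 and the 100 percentile of its list in every library.

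Gnas region 16, chr2:174161113-174163197, held 107 and 99 tags at E12.5, 102 and 88 at E14.5, 91 and 133 in ISC, and 166 and 131 in enterocytes. As normalised tags, these were 1.94 and 1.79 at E12.5, 2.95 and 2.52 at E14.5, 2.81 and 4.23 in ISC, and 3.83 and 3.35 in enterocytes. ISC overlapped with both of its neighbours in this order. In Gnas regions 16 and 18, all bases covered in the 4 adult libraries were also covered in at least 1 embryonic library, which was not so in Meg3 region 5.

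Gnas region 8, chr2:174109128-174112975, was the longest of the 57 regions and had peaks in E14.5 and enterocytes but in no ISC library and no E12.5 library. It held 127 and 37 tags at E14.5 and 141 and 274 in enterocytes, or 3.67 and 1.06 and 3.25 and 7 normalised tags. The ranges of both groups overlapped, and the peaks of the E14.5 replicates shared 313 bases. All its scores were between the 33.1 and the 60.8 percentile. Gnas region 2, chr2:174095861-174096436, had 48 and 28 tags in ISC and 44 in E14.5 replicate 1. Gnas region 7, chr2:174107243-174107745, had 44 and 32 tags at E14.5 and no peak elsewhere. Gnas region 11, chr2:174132349-174132926, had 34 and 20 tags at E14.5, 31 in ISC replicate 1 and 34 in enterocyte replicate 2. The other 12 Gnas regions had peaks in 1 to 7 libraries, with 17 to 77 tags per library.

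Among them, Gnas region 5, chr2:174102199-174103073, was picked after its values were seen because its highest value was in an E12.5 library. It held 1.25 and 0.83 normalised tags at E12.5, 0.665 and 0.487 at E14.5, 0.894 and 0.763 in ISC, no peak in enterocyte replicate 1 and 0.792 in enterocyte replicate 2. E12.5 and ISC overlapped, and the libraries of both lay above those of E14.5.

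**Figure D3:**
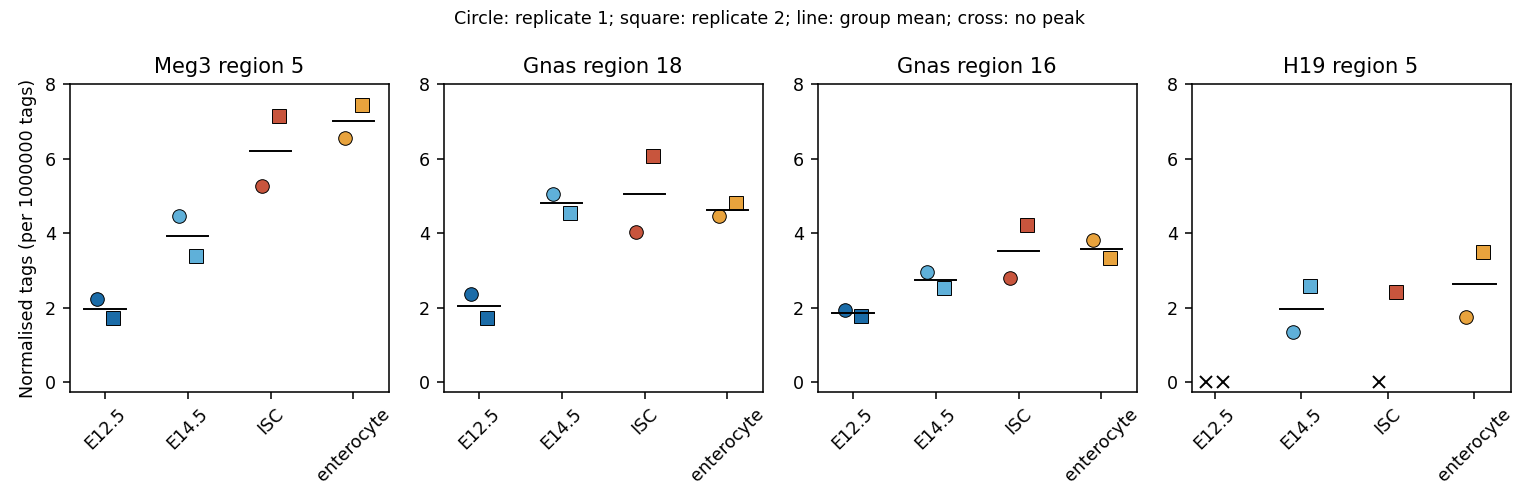
Normalised tags (per 1000000 tags of the library) of the 3 regions called in all 8 libraries and of H19 region 5, by group, 1 point per library, with the group mean as a line where both libraries had a peak. Meg3 region 5 is higher in the 4 adult than in the 4 embryonic libraries, Gnas regions 18 and 16 are lowest at E12.5, and H19 region 5 has no peak at E12.5 or in ISC replicate 1.

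The first comparison set E14.5 against E12.5, the embryonic step. Peaks in both E14.5 lists with none at E12.5 were found for 12 of the 57 regions, 21.1%, beside 23.9% of all regions, and the converse for 0 of the 57, beside 0.276% of all regions. The share of the imprinted intervals was thus near that of the genome. The 12 were H19 region 5, Meg3 regions 3, 9, 12, 16 and 17, Rasgrf1 regions 2, 3 and 7, and Gnas regions 7, 8 and 11. With lists of equal length, the 84990 highest-scoring peaks of each, the first count was 1 and the converse, 0 in the full lists, was also 1. The 12 became 23 without E14.5 replicate 1 and 21 without E14.5 replicate 2. Leaving out a library relaxes the presence rule, so here and below such a count could only stay or rise. Neither these counts nor those with lists of equal length were made over all regions. Whether the changes are particular to the imprinted intervals was not tested.

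Among the tags of the 3 regions called everywhere, none passed in E14.5 against E12.5 at an adjusted p of 0.05 (edgeR's quasi-likelihood test over 24563 such regions of the genome, Benjamini-Hochberg), beside 0.399% of all regions tested. None of the 3 reached an unadjusted p of 0.05 in edgeR, while 3981 of the 24563 did. DESeq2 called none of the 3, beside 345 of all, 1.4%. Meg3 region 5 had a log2 difference of 0.17 ± 0.24 (SE), Gnas region 18 of 0.42 ± 0.25 and Gnas region 16 of -0.27 ± 0.25. Per covered kb, Meg3 region 5 was at -0.06 and Gnas region 18 at 0.18. These values are relative to the 24563 regions, whose normalised tags were themselves lower at E12.5. Scaled by total tags instead, the median of all of them was 0.81 on the log2 scale, and Meg3 region 5 and Gnas region 18 passed, beside 36.8% of all.

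The second comparison set ISC against E14.5. For the ISC, peaks in both libraries with none at E14.5 were found for 2 of the 57 regions, 3.51%, beside 1.91% of all regions. Both were at H19, regions 2 and 3. The converse held for 7 of the 57, 12.3%, beside 6.69% of all regions, and these were Meg3 regions 3 and 17, Rasgrf1 regions 2, 3 and 8, and Gnas regions 7 and 8. No region at H19 was among the 7. With lists of equal length, 0 were left in both directions. The 2 became 6 without ISC replicate 1, and the 7 became 14 without E14.5 replicate 1.

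By tags, 0 of the 3 regions passed in ISC against E14.5 and 0% of all regions did, while 1 of the 3 and 1510 of the 24563 had an unadjusted p under 0.05, and DESeq2 called 0 of the 3 and 11 of all, 0.0448%. The 1 was Meg3 region 5, with a log2 difference of 0.61 ± 0.24 (edgeR's quasi-likelihood test, adjusted p = 0.716), or 0.16 ± 0.11 per covered kb. Gnas region 16 had 0.29 ± 0.25, and Gnas region 18 had a difference within 0.01 of 0 with an SE of 0.24.

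The third comparison set enterocytes against ISC, the stem cells that give rise to them. Peaks in both enterocyte lists with none in ISC were found for 1 of the 57 regions, Gnas region 8, 1.75%, beside 1.28% of all regions. The converse held for 2 of the 57, H19 region 3 and Gnas region 2, 3.51%, beside 3.85% of all regions. These shares were near those of the genome. Without enterocyte replicate 1 the first count was 5, and without ISC replicate 1 the other was 7. In the full lists, Meg3 and Rasgrf1 had no such region in either direction. With lists of equal length the first count was again 1, but for another region. Gnas region 8 then had a peak in no library, and Meg3 region 9 had peaks in the 2 enterocyte libraries alone.

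By tags, 0 of the 3 regions and 0% of all regions passed in enterocytes against ISC, 0 of the 3 and 839 of all had an unadjusted p under 0.05 (edgeR's quasi-likelihood test), and DESeq2 called 0. Meg3 region 5 had a log2 difference of 0.13 ± 0.23, or 0.34 ± 0.089 per covered kb (adjusted p = 0.413 in edgeR). Gnas region 18 had -0.16 ± 0.24, or 0.19 ± 0.11 per covered kb. Both values per covered kb are relative to all regions tested. Scaled by total tags alone, Gnas region 18 averaged 2.67 ± 0.83 normalised tags per covered kb in ISC and 2.44 ± 0.4 in enterocytes. Meg3 region 5 averaged 2.69 ± 0.37 and 2.74 ± 0.26 in the same order (SD, n = 2 per group). On this scale neither region was clearly denser in enterocytes. Gnas region 16 had a difference within 0.01 of 0, with an SE of 0.25.

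The fourth comparison set the 4 adult against the 4 embryonic libraries. Peaks in every adult list with none in an embryonic one were found for 1 of the 57 regions, H19 region 2, 1.75%, beside 0.402% of all regions. The converse held for 0 of the 57, beside 0.139% of all regions. With lists of equal length H19 region 2 had a peak in enterocyte replicate 1 alone.

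Meg3 region 5 averaged 6.61 ± 0.968 normalised tags in adult and 2.94 ± 1.23 in embryonic libraries (SD, n = 4 each). Its log2 difference was 0.76 ± 0.17 (SE), larger than that of 98.3% of the regions tested, with an unadjusted p of 0.000603 and an adjusted p of 0.0792 (edgeR's quasi-likelihood test over all 24563 regions), which does not pass the threshold of 0.05. Over the alternatives the adjusted p ran from 0.0113 to 0.421. DESeq2 gave 0.0356, and the difference was positive under each alternative run. The highest adjusted p, 0.421 in edgeR, came when adult libraries were set against those of E14.5 and not of E12.5. The log2 difference was then 0.68 ± 0.21 (SE), and fewer libraries were compared. The lowest adjusted p came with scaling by total tags, under which the median of all 24563 regions was at 0.49 and Meg3 region 5 at 1.25. Per covered kb, which takes out the wider peaks, the log2 difference of Meg3 region 5 was 0.3 ± 0.075 (adjusted p = 0.0999 in edgeR). Without TMM scaling, normalised tags per covered kb averaged 2.83 ± 0.68 for the E14.5 lists and 1.59 ± 0.06 for those of E12.5. The ISC mean was 2.69 ± 0.37 and the enterocyte mean 2.74 ± 0.26 (SD, n = 2 per group). Neither adult mean was thus above that of E14.5 on this scale. With TMM scaling, ISC lay above E14.5 by 0.16 ± 0.11 (SE) on the log2 scale.

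None of the 3 regions passed in adult against embryo, beside 0.252% of all regions tested, 1 of the 3 and 2921 of all had an unadjusted p under 0.05, and DESeq2 called 1 of the 3 and 256 of all, 1.04%. Gnas region 16 had a log2 difference of 0.16 ± 0.18 and Gnas region 18 of 0.13 ± 0.17 (adjusted p = 0.791 for Gnas region 16 and 0.83 for Gnas region 18). A p above the threshold does not show that the levels were equal.

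**Figure D4:**
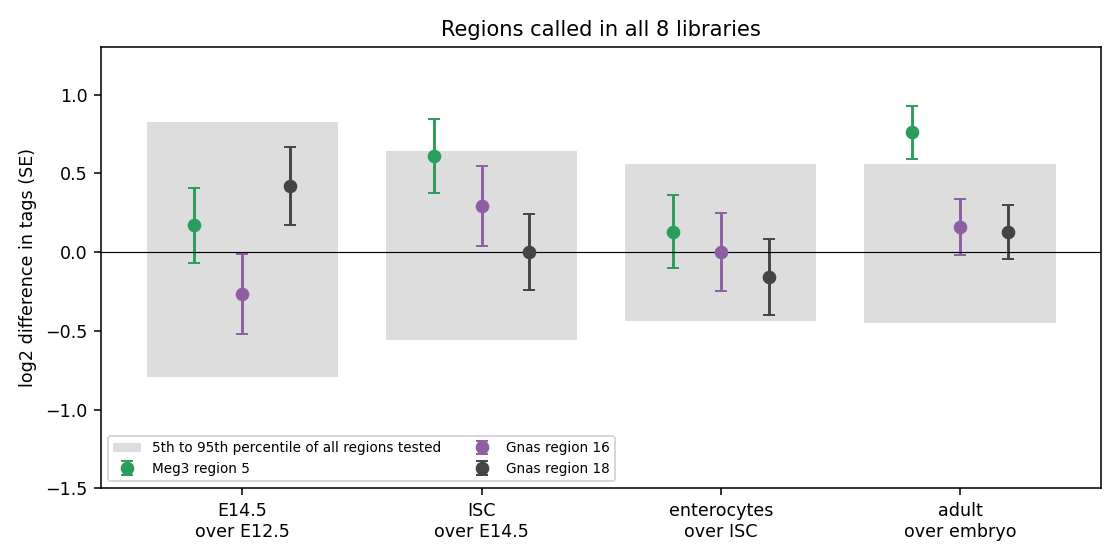
Log2 difference in tags with its standard error for the 3 regions called in all 8 libraries, in the 4 comparisons, with the 5th to 95th percentile of all 24563 tested regions as a grey box. Meg3 region 5 in adult over embryo, at 0.76, is the value outside its box, which ends at 0.56.

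With lists of equal length, 35 of the 57 regions, 61.4%, lost every peak, beside 52.7% of all regions. Meg3 region 5, Gnas region 16 and Gnas region 18 still had a peak in all 8 libraries. Meg3 region 12 still had peaks in all 6 later libraries and in neither E12.5 library, while Meg3 region 16 kept its peak in E14.5 replicate 2 alone. Meg3 region 14 went down to 4 libraries. H19 region 5 had a peak in no library under this setting, Rasgrf1 region 7 in E14.5 replicate 2 and ISC replicate 2, and Gnas region 5, called in 7 libraries of the full lists, in the 2 E12.5 libraries alone.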

How the data were processed

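Per the labels' protocols, 200000 sorted cells were collected, and 1 µg of their DNA was fragmented to 150 to 250 bp and enriched with a MethylMiner kit. The submitters' processing notes name bcl2fastq 1.8.4, Bowtie 1.1.2 and SAMtools 1.2. Per the file headers, MACS 1.4.2 called the peaks library by library with no control (p cutoff 1e-05, regional background 10000 bp). The authors deposited whole-number tag counts per peak, not normalized, on mm9. The score per peak, from the caller's p-value, and the fold, a ratio to local background, are the authors' deposited values, and the score served only to rank peaks within a list. With no control library, copy number or repeats can also give peaks.

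The file headers give a depth of 31438314 to 55442400 tags a library. Normalised tags are the tags of a region's peaks per 1000000 of that total, so they are blind to tags outside peaks. Only the 24563 regions with a peak in all 8 libraries were tested, since the others have no count in some library. edgeR 4.0.16 was fitted to all 8 libraries with a mean per group and TMM scaling, and tested on simulated data. There, a planted log2 difference of 1 was recovered in 26 of 100 regions for E14.5 against E12.5 and 19 for ISC against E14.5. It was recovered in 22 for enterocytes against ISC and 75 for adult against embryo. A planted difference of 2 was recovered in 98 to 100 of 100 regions. The planted regions were picked at random, and the simulated spread followed the trend over all regions. The 3 tested regions of the intervals lay at or above the 74.8 percentile of normalised tags in every library. These rates are therefore not theirs. DESeq2 1.42.0 was an alternative. Presence rests on each list's own cutoff and is described without a test. For 2 against 2 libraries an exact test could not go below p = 0.33. Regions given in full were those called in all 8 libraries, those meeting the presence rule in a comparison and the highest by tags per locus, at most 6 per locus. The intervals, members and lists were chosen with earlier results of these data known. Alternatives were other scalings, a minimum of 20 tags, tags per covered kb (scaled by TMM on length-adjusted tags), a replicate block, stricter and equal-length lists, merging within 500 bp, presence at 50% coverage, a looser presence rule, E14.5 alone as the embryonic side and leaving out each library. R 4.3.3 and Python 3.11.15 were used.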

Additional observations from a re-analysis of the deposited data

How the results depend on the processing

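The tag test called 0 of the 3 regions in each comparison, with these exceptions. Scaling by total tags called 2 in E14.5 against E12.5 and 1 in adult against embryo, and DESeq2 called 1 in adult against embryo. Same-numbered libraries deviated together from their group means with r of at most 0.0666, so no strong pairing by replicate number was seen in the tags. This cannot show whether such libraries shared mice or a batch. With the replicate block 0 of the 3 were called in each comparison. Leaving out 1 library also gave 0 throughout. Over all 24563 regions, edgeR called 70 higher and 28 lower in E14.5 against E12.5, DESeq2 310 and 35, total tags 9018 and 24, tags per covered kb 5 and 26, at least 20 tags 30 and 9, and the replicate block 0. In adult against embryo these were 49 and 13, 205 and 51, 3677 and 9, 38 and 19, 90 and 30, and 17 and 9. Without any 1 of the 4 libraries concerned, edgeR called 0 or 1 region in E14.5 against E12.5. In adult against embryo it called 30 and 4 without E14.5 replicate 1 and 0 or 1 without any of the other 7.

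Presence counts depended on list length and on the number of libraries the rule asks for. The counts under the alternatives were made for the regions of the intervals alone, with no share over all regions. The looser rule and leaving out 1 library both relax that rule, so under them a count could only stay or rise. For E14.5 against E12.5 (12 present in E14.5 alone and 0 in E12.5 alone) the counts were 32 and 3 under the looser rule, 5 and 1 with the stricter lists, 1 and 1 with equal-length lists, 5 and 1 at 50% coverage, and 14 to 23 and 0 to 3 without 1 library. The first was 23 without E14.5 replicate 1 and 21 without E14.5 replicate 2, and the 3 came without E12.5 replicate 1. For ISC against E14.5 (2 and 7) they were 7 and 20, 0 and 1, 0 and 0, and 1 and 3 in the same order, and 3 to 6 and 8 to 14 without 1 library. The first was 6 without ISC replicate 1 and 4 without E14.5 replicate 1, and the other was 14 without E14.5 replicate 1, 13 without E14.5 replicate 2 and 11 without ISC replicate 2. For enterocytes against ISC (1 and 2) they were 6 and 9 under the looser rule, 0 and 0 with the stricter lists, 0 for ISC alone with equal-length lists, 1 for ISC alone with merging within 500 bp, and 1 to 5 and 3 to 7 without 1 library. The first was 5 without enterocyte replicate 1, 4 without ISC replicate 2 and 2 without enterocyte replicate 2, and the other was 7 without ISC replicate 1, 5 without enterocyte replicate 2 and 4 without ISC replicate 2. For adult against embryo (1 and 0) they were 10 and 20 under the looser rule, 0 for adult alone with the stricter lists, equal-length lists and 50% coverage, 4 for embryo alone with E14.5 as the embryonic side, and 1 to 1 and 0 to 0 without 1 library.

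Some differences changed sign. Per covered kb, Meg3 region 5 in E14.5 against E12.5 was -0.0607, Gnas region 16 was -0.0903 in ISC against E14.5, 0.199 in enterocytes against ISC and -0.0047 in adult against embryo, and Gnas region 18 was 0.0291 in ISC against E14.5 and 0.187 in enterocytes against ISC. Scaled by total tags alone, normalised tags per covered kb averaged 2.29 ± 0.07 in ISC and 2.1 ± 0.37 in enterocytes for Gnas region 16. For Gnas region 18 they averaged 2.67 ± 0.83 and 2.44 ± 0.4 (SD, n = 2 per group). The positive values per covered kb in enterocytes against ISC are thus relative to the other regions tested. The cause of the sign changes was not tested. With total tags, Gnas region 16 was 0.56 in E14.5 against E12.5 and 0.0293 in enterocytes against ISC, and Gnas region 18 was 0.0721 in ISC against E14.5. This scaling moved all regions, with medians of 0.812, 0.0331 and 0.0548 in these 3 comparisons. Relative to the median, Gnas region 16 stayed at -0.257 in E14.5 against E12.5 and was at -0.004 in enterocytes against ISC, and Gnas region 18 was at 0.017 in ISC against E14.5. Gnas region 16 in enterocytes against ISC was 0.0058 with DESeq2 and 0.002 with at least 20 tags. Gnas region 18 was 0.0079 in ISC against E14.5 with at least 20 tags and -0.0794 in adult against embryo with E14.5 as the embryonic side. Without 1 library, Gnas region 18 in ISC against E14.5 ran from -0.104 to 0.0905 (0.065 without E14.5 replicate 2, 0.0905 without ISC replicate 1), and Gnas region 16 in enterocytes against ISC from -0.128 to 0.131 (0.114 without ISC replicate 2, 0.131 without enterocyte replicate 2). In the main setting, Gnas region 18 in ISC against E14.5 was -0.0007 ± 0.24, and Gnas region 16 in enterocytes against ISC was -0.0014 ± 0.25 (SE). The cause of these last changes was not tested.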
